A study of Mus musculus with 8 samples.

Results

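Genes of the citrate cycle, of pyruvate entry into the mitochondrion and of fatty acid uptake and oxidation were followed in 8 hearts of mouse embryos at E10.5, 4 Dbh-/- hearts (KO 1 to KO 4) and 4 Dbh+/+ hearts (WT 1 to WT 4). The list holds 53 genes out of 12871 genes named on the array, chosen by symbol and pathway with earlier results of these data known. It comprises 14 citrate cycle enzymes, 10 genes of pyruvate entry, 7 of fatty acid uptake and activation, 4 of the carnitine shuttle, 14 of beta oxidation and 4 transcriptional regulators. On the array 50 of the 53 had a probe set of their own, 90 probe sets in all, and 47 genes were Present in at least 3 of 8 hearts on the MAS5 detection call and were tested. Pdp1 and Acsl3 had no probe set named here, and the probe set of Cpt1b is shared with Gm44502 and Chkb.

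Dbh encodes dopamine beta-hydroxylase, which makes noradrenaline from dopamine, so homozygous loss of the gene removes the enzyme that noradrenaline and adrenaline synthesis depends on. The labels set the groups apart by the Dbh genotype, and no agent is named for either. The hearts were matched for age and size, each embryo's heartbeat was checked by ultrasound, and total RNA of each heart went on 1 Affymetrix Mouse 430A 2.0 array. Strain, sex and the make of the Dbh allele are not given in the sources used here. The Dbh probe set was Present in 0 of 8 hearts and cannot serve as a check of genotype.

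The citrate cycle takes acetyl groups from pyruvate or fatty acids and passes their electrons to the respiratory chain. The adult heart draws most of its energy from fatty acids, which are carried into mitochondria as carnitine esters and shortened by beta oxidation, whereas the embryonic heart depends mainly on glucose, glycogen and lactate. The shift to fat takes place around birth and is driven in part by the PPAR nuclear receptors and their coactivator PGC-1alpha, the product of Ppargc1a.

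Values are normalized MAS5 signals, quantile-normalized over the 8 arrays. A signal compares hearts for 1 probe set, and levels of different probe sets were not compared. Differences are KO minus WT on the scale of log2(signal + 16), which understates changes of dim probe sets, from limma with Benjamini-Hochberg adjustment over all 16292 tested probe sets and a threshold of 0.05. Nothing in the labels tells whether hearts came from separate litters, so the p-values measure the spread between these hearts. Each heart's title carries the number 541, 569 or 570, which the labels do not explain. A letter follows it, L in titles with 541 and R in all others. The letter thus makes the same split as 541 against the rest. WT 3, WT 4, KO 3 and KO 4 carry 541, WT 2, KO 1 and KO 2 carry 569, and WT 1 alone carries 570. With the title number as a block, WT 1 therefore adds nothing to the genotype difference.

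Several hearts stood apart before any comparison of genotypes. The summed signal of 12 cardiomyocyte markers was 29324 in WT 3, 35748 in KO 3 and 35231 in KO 4, and lay between 45166 and 48077 in the other 5 hearts, with all 12 markers detected. Liver and endoderm markers summed to 10502 in WT 3 and to between 81.7 and 193 in the other 7, with Ahsg Present in none. The 12 neuron and neural crest markers summed to between 2250 and 4481 in WT 3, KO 3 and KO 4 and to at most 1906 in the rest, and the 10 branchial and skeletal muscle markers to at least 425 against at most 350.1. The 10 endothelial markers went the other way, with 2907 to 3453 in these 3 hearts and 4204 to 5265 in the rest. The 9 hypoxia response genes on the array summed to 11752 in WT 4 and to between 5159 and 7271 in the other 7. The 12 erythroid markers summed to between 27596 and 33257 in the 4 hearts titled 541 and to between 17974 and 27269 in the rest. The 5' to 3' signal ratio of the actin control was 0.407 in WT 3, 0.39 in KO 3 and 0.401 in KO 4, against 0.483 to 0.527 in the other 5.

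Detection came first, since it bears on which fuel programme the E10.5 heart expresses. Of the 50 genes on the array, 44 had a Present call in every heart. The same 44 were among the 47 tested genes of the list. Of all 9474 tested genes 7877 had one too, so full detection was common among tested genes. That set already required at least 3 Present calls, and 12871 genes are named on the array. All 14 citrate cycle genes were Present in 8 of 8 hearts, as were 8 of 9 genes of pyruvate entry, 5 of 6 of fat uptake, all 3 of the carnitine shuttle and 13 of 14 of beta oxidation. Per heart, between 45 and 47 of the 50 genes were detected, with no separation of the genotypes. The exceptions were few. Slc27a1, a fatty acid transporter of muscle and fat, was Present in 3 hearts, Pcx, which makes oxaloacetate from pyruvate, in 6, and Acads, the short-chain acyl-CoA dehydrogenase, in 7.

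The 3 PPAR genes, Ppara, Ppard and Pparg, were Present in 0 of 8 hearts. Signals of Ppara, the receptor that drives fat oxidation genes in the adult heart, were 6.43, 0.669, 0.907 and 22 in WT 1 to WT 4 and 0.48, 8.85, 1.03 and 0.594 in KO 1 to KO 4. Those of Ppard were 0.536, 1.68, 1.01 and 0.863 in WT 1 to WT 4 and 2.08, 0.497, 1.37 and 2.17 in KO 1 to KO 4, and those of Pparg 2.33, 4.8, 2.31 and 14.7 in WT 1 to WT 4 and 4.95, 17, 11.8 and 10.1 in KO 1 to KO 4. These values are background on this array and carry no order, and they do not show that the transcripts were missing. The coactivator gene Ppargc1a was Present in all 8 hearts.

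Loss of Dbh was accompanied by no gene past the threshold in this pathway. Of 16292 probe sets 0 passed (percent called 0), the smallest adjusted p was 0.9996, and 0 of 47 genes of the list were called. At an unadjusted p under 0.05, limma gave 351 probe sets (2.15%) and 223 of 9474 genes (2.35%, 1.54% higher and 0.813% lower in KO), and 1 of the 47 genes, Idh3g, which was higher. With signals as deposited 0 of 47 had such a p, against 1.45% of genes, and with the title number as a block 0 of 47, against 4.97%. Of the 47, 30 had a difference above 0 and 17 below, where 52.9% of all tested genes lay above 0. Their median log2 difference was 0.0348, and that of all genes tested 0.0112. Without WT 3, the lowest heart of many of these genes, 16 of 47 lay above 0 and the median was -0.0721. Leaving out a low WT heart lowers KO minus WT, and leaving out a low KO heart raises it. The median was 0.0973 without KO 3 and 0.102 without KO 4.

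The data bound these differences. The 95% interval reached a median of 0.398 log2 units to either side over the 47 genes. Over all probe sets the median was 0.41, and it was 0.573 with signals as deposited. For 46 of them the interval lay within 1 log2 unit of 0, and for 23 within 0.5. Ppargc1a, with an interval from -1.05 to 0.31, was the exception.

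**Figure D1:**
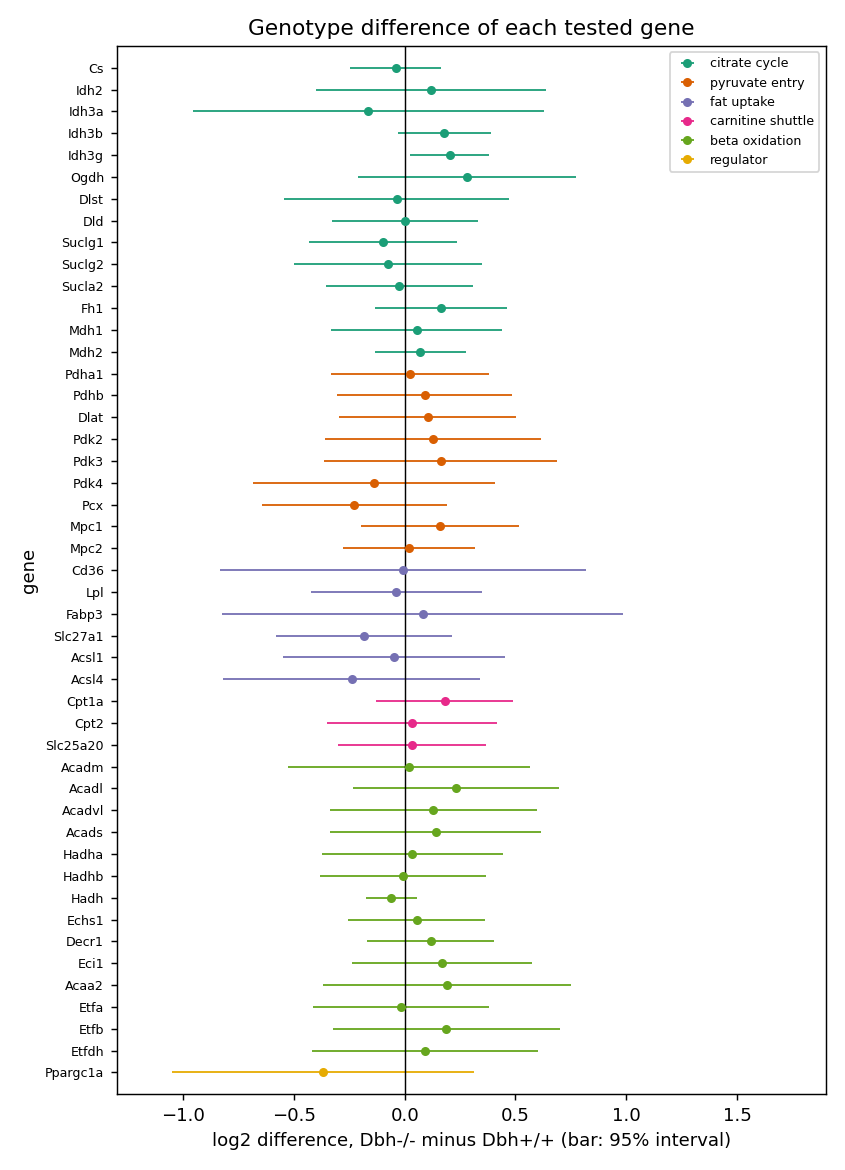
Log2 difference of each of the 47 tested genes, Dbh-/- minus Dbh+/+, on the x axis with its 95% interval as a bar, 1 row per gene and coloured by class. The interval of Idh3g alone lies to 1 side of 0, and all others cross it.

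The 3 subunits of NAD-dependent isocitrate dehydrogenase, a regulated step of the cycle, differed in their patterns, and none was called. Idh3g, a regulatory subunit, gave 1818, 1782, 1890 and 1784 in WT 1 to WT 4 and 2277, 2170, 1980 and 1970 in KO 1 to KO 4. All 4 KO hearts lay above all 4 WT hearts, and the means were 2099 ± 150.2 for KO hearts and 1819 ± 50.4 for WT hearts (SD, n = 4). The log2 difference was 0.20 ± 0.0799 (SE; limma, unadjusted p = 0.0283), and it was 0.19 (limma, unadjusted p = 0.0532) with the title number as a block, 0.10 within title 541 and 0.32 within title 569. A second probe set of Idh3g overlapped between the genotypes, with a log2 difference of 0.0981 ± 0.0953 (SE).

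Idh3b, another subunit, gave 887, 897, 829 and 896 in WT 1 to WT 4 and 964, 1005, 1032 and 977 in KO 1 to KO 4. KO hearts again all exceeded WT hearts, by a log2 difference of 0.18 ± 0.0948 (SE; limma, unadjusted p = 0.0883). Its second probe set overlapped between the genotypes as well, with a difference of 0.11 ± 0.10 (SE). By their brighter probe sets Idh3g and Idh3b were the 2 of 47 genes with all KO above all WT, and 0 had all KO below, where 0.939% and 0.654% of all tested genes did. Idh3a, the catalytic subunit, behaved otherwise, with 1375, 1291, 499.6 and 737 in WT 1 to WT 4 and 1196, 1128, 578 and 527 in KO 1 to KO 4. The 4 hearts titled 541 were all below the other 4 in both genotypes, and the KO minus WT difference was -0.16 ± 0.36 (SE; limma, unadjusted p = 0.655). Its other 2 probe sets had the same KO minus WT sign.

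**Figure D2:**
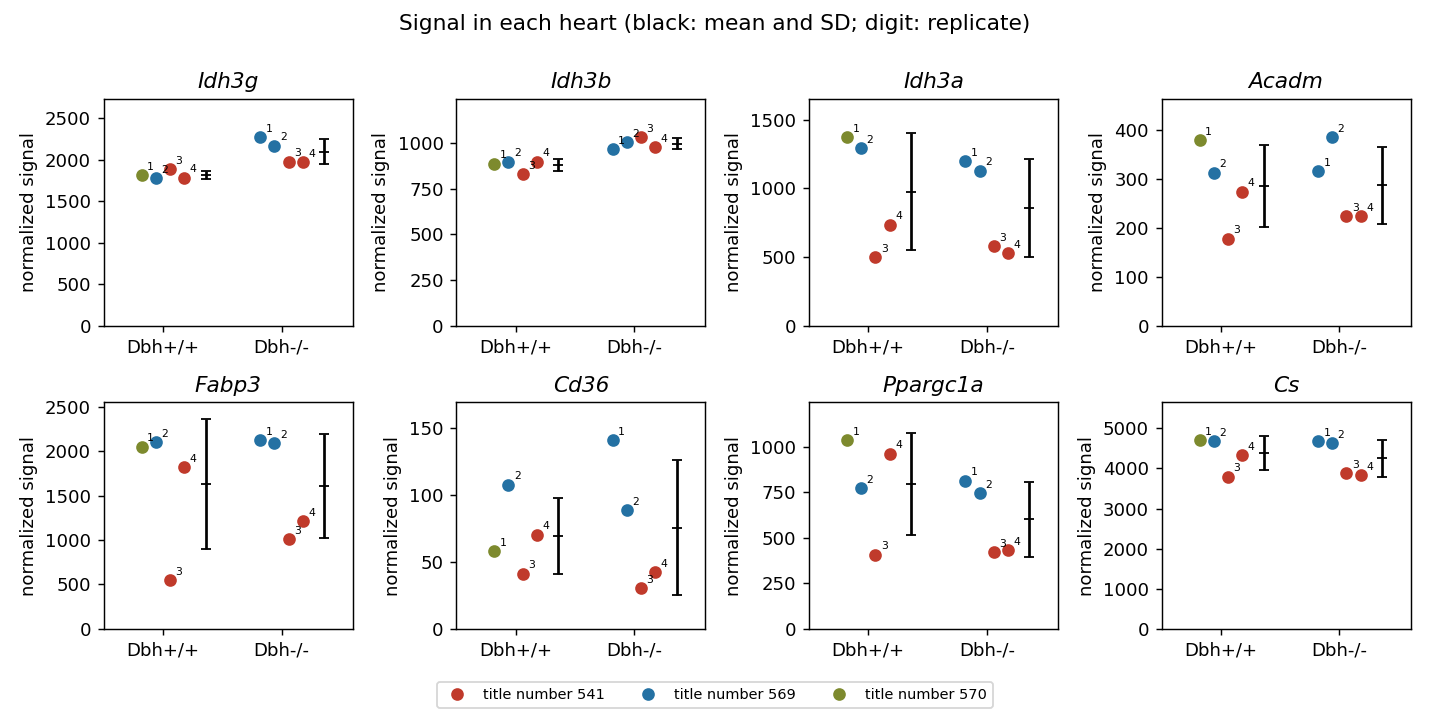
Normalized signal of 8 genes in each heart, by genotype on the x axis, with the replicate digit beside each point, the title number as colour and the group mean with its SD in black. By the probe sets shown, Idh3g and Idh3b separate by genotype, though neither was called and their second probe sets overlap. The red points of Idh3a, those titled 541, lie low in both genotypes, and Cs varies little.

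Cs, citrate synthase, the entry enzyme of the cycle, was among the steadier genes, with 4704, 4679, 3791 and 4327 in WT 1 to WT 4 and 4675, 4630, 3887 and 3825 in KO 1 to KO 4. WT 3, KO 3 and KO 4 were again the lowest, and the genotypes overlapped with a log2 difference of -0.0413 ± 0.0933 (SE; limma, unadjusted p = 0.667). Ogdh, the dehydrogenase subunit of the 2-oxoglutarate complex, gave 401, 361, 192 and 272 in WT 1 to WT 4 and 355, 405, 410.1 and 294 in KO 1 to KO 4. WT 3 was the lowest heart, and the difference of 0.28 ± 0.22 (SE; limma, unadjusted p = 0.233) was smaller than its spread allowed to call. Fh1, fumarase, gave 1360, 1463, 1108 and 1108 in WT 1 to WT 4 and 1564, 1579, 1330 and 1174 in KO 1 to KO 4, with overlapping groups and a difference of 0.16 ± 0.13 (SE; limma, unadjusted p = 0.252). The other 8 citrate cycle genes (Idh2, Dlst, Dld, Suclg1, Suclg2, Sucla2, Mdh1 and Mdh2) had log2 differences between -0.0961 for Suclg1, a succinyl-CoA ligase subunit, and 0.12 for Idh2, the NADP-dependent mitochondrial isocitrate dehydrogenase. The class median was 0.0276, with 8 of 14 above 0, and without WT 3 it was -0.0927, with 5 of 14 above 0.

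Pyruvate reaches the cycle through the mitochondrial pyruvate carrier and pyruvate dehydrogenase, which the Pdk kinases switch off. Pdha1, the catalytic subunit, gave 1414, 1519, 1066 and 1551 in WT 1 to WT 4 and 1680, 1617, 1121 and 1248 in KO 1 to KO 4. WT 3, KO 3 and KO 4 were the 3 lowest hearts, and the genotype difference was 0.0245 ± 0.16 (SE; limma, unadjusted p = 0.882). Mpc1, a subunit of the carrier, gave 164, 108, 127 and 117 in WT 1 to WT 4 and 130.3, 158, 142 and 147 in KO 1 to KO 4, with overlapping groups and a difference of 0.16 ± 0.16 (SE; limma, unadjusted p = 0.341).

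Pdk4, the kinase that fat and fasting raise in adult muscle, was detected in every E10.5 heart, with 2132, 2277, 1129 and 2720 in WT 1 to WT 4 and 2161, 2140, 1525 and 1444 in KO 1 to KO 4. The hearts WT 3, KO 3 and KO 4 were low and WT 4 was the highest. Its difference was -0.14 ± 0.25 (SE; limma, unadjusted p = 0.591), and without WT 3 it was -0.40 (limma, unadjusted p = 0.0312, adjusted p = 0.864). Without WT 4, its highest heart, the difference was 0.0181. Pdk3 gave 372, 388, 189 and 372 in WT 1 to WT 4 and 427, 411, 339 and 275 in KO 1 to KO 4, a low WT 3 among otherwise close WT hearts, and a difference of 0.16 ± 0.24 (SE; limma, unadjusted p = 0.509). Pdk2 was dim, with 37.1, 27.9, 12.1 and 16.7 in WT 1 to WT 4 and 17.8, 32.8, 28.5 and 25.6 in KO 1 to KO 4 and a difference of 0.13 ± 0.22 (SE; limma, unadjusted p = 0.575). Pcx gave 25.7, 19.3, 13.4 and 29.2 in WT 1 to WT 4 and 11.3, 13.4, 23.6 and 16.8 in KO 1 to KO 4, and its groups overlapped with a difference of -0.23 ± 0.19 (SE; limma, unadjusted p = 0.254). Pdhb, Dlat and Mpc2 had differences of 0.0905, 0.10 and 0.0205. In this class 7 of 9 tested genes lay above 0, with a median of 0.0905, and without WT 3 it was 2 of 9, with a median of -0.0201.

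Fat uptake genes varied more between hearts than the citrate cycle did, with a median SD over 8 hearts of 0.39 log2 units against 0.21 for citrate cycle genes and 0.25 for all genes tested. Fabp3, the fatty acid binding protein of heart muscle, gave 2050, 2104, 548 and 1821 in WT 1 to WT 4 and 2125, 2094, 1007 and 1215 in KO 1 to KO 4. WT 3 fell far below the other WT hearts, KO 3 and KO 4 were intermediate, and the remaining 5 were close to each other. The genotype difference was 0.0814 ± 0.41 (SE; limma, unadjusted p = 0.846). Cd36, a fatty acid translocase, gave 58.2, 108, 41.2 and 70.2 in WT 1 to WT 4 and 141, 88.7, 30.4 and 42.3 in KO 1 to KO 4. KO 3, WT 3 and KO 4 were lowest and KO 1 highest, with a difference of -0.00759 ± 0.37 (SE; limma, unadjusted p = 0.984). Its other 2 probe sets, also Present in 8 hearts, gave -0.32 and -0.34.

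Lpl, lipoprotein lipase, which frees fatty acids from circulating lipoproteins, gave 1399, 1480, 1507 and 1045 in WT 1 to WT 4 and 1693, 1496, 1071 and 1079 in KO 1 to KO 4, and here WT 3 was not low. Its difference was -0.0382 ± 0.17 (SE; limma, unadjusted p = 0.831), and that of its other probe set -0.25. Acsl1, which activates long-chain fatty acids with coenzyme A, gave 351, 351, 283 and 316 in WT 1 to WT 4 and 427, 422, 217 and 242 in KO 1 to KO 4. All 4 hearts titled 541 were below the rest, and the difference was -0.0484 ± 0.23 (SE; limma, unadjusted p = 0.835). Of its other 3 probe sets, those Present in 8 hearts gave -0.16 and -0.34. A dim one, Present in 3 hearts, gave 0.20. Slc27a1 gave 22.5, 20.03, 14.6 and 21.1 in WT 1 to WT 4 and 8.33, 17.4, 23.1 and 13.7 in KO 1 to KO 4, with Present calls in 3 hearts, with a difference of -0.18 ± 0.18 (SE; limma, unadjusted p = 0.326). Acsl4 had a difference of -0.24. Of the 6 tested uptake genes 1 lay above 0, and the median was -0.0433, or -0.22 without WT 3.

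The carnitine shuttle moves activated fatty acids across the inner mitochondrial membrane. Cpt1a, the outer membrane enzyme of liver and fetal heart, gave 149.8, 134, 137 and 141 in WT 1 to WT 4 and 172, 176, 154 and 144 in KO 1 to KO 4. All KO values were above all but 1 WT value, the difference was 0.18 ± 0.14 (SE; limma, unadjusted p = 0.222), and 1 of its 2 other probe sets pointed the other way. The probe set shared by Cpt1b, the muscle isoform, with Gm44502 and Chkb was Present in 8 of 8 hearts, with 133, 133, 26.9 and 119 in WT 1 to WT 4 and 90.7, 117, 55.3 and 34.7 in KO 1 to KO 4. WT 3, KO 4 and KO 3 were the lowest, and the log2 difference of -0.33 ± 0.43 (SE; limma, unadjusted p = 0.454) cannot be assigned to Cpt1b. Cpt2, the inner membrane enzyme, and Slc25a20, the carnitine-acylcarnitine carrier, had differences of 0.0324 and 0.0319.

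Beta oxidation enzymes shorten fatty acids step by step. Acadm, the medium-chain dehydrogenase, gave 379.5, 313, 178 and 274 in WT 1 to WT 4 and 317, 386, 224 and 224 in KO 1 to KO 4. The hearts titled 541 were all below the other 4, and the genotype difference was 0.0183 ± 0.25 (SE; limma, unadjusted p = 0.942). Acadl, the long-chain dehydrogenase, gave 563, 497, 303 and 404 in WT 1 to WT 4 and 655, 543, 406 and 461 in KO 1 to KO 4, with the same split by title and a difference of 0.23 ± 0.21 (SE; limma, unadjusted p = 0.298). Hadha, the alpha subunit of the trifunctional protein, gave 143, 125, 96.2 and 107 in WT 1 to WT 4 and 146, 135, 117 and 89.6 in KO 1 to KO 4, again lowest in the hearts titled 541, with a difference of 0.0348 ± 0.19 (SE; limma, unadjusted p = 0.855).

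Hadh, the short-chain hydroxyacyl-CoA dehydrogenase, was by its brightest probe set the steadiest gene of the list, with 4785, 5171, 4825 and 5031 in WT 1 to WT 4 and 4726, 4971, 4726 and 4575 in KO 1 to KO 4. Its groups overlapped, and its 95% interval, -0.18 to 0.0557, was the narrowest of the 47. The log2 difference was -0.0603 ± 0.0524 (SE; limma, unadjusted p = 0.276). The other probe sets of Hadh gave -0.0278 ± 0.0783 and -0.0366 ± 0.105 (SE). The other 10 genes of the class (Acadvl, Acads, Hadhb, Echs1, Decr1, Eci1, Acaa2, Etfa, Etfb and Etfdh) had differences between -0.0162 for Etfa, a subunit of the flavoprotein that takes up the electrons, and 0.19 for Acaa2, a thiolase. Of 14 genes 11 lay above 0, with a median of 0.10. Without WT 3, 6 of 14 lay above 0 and the median was -0.0515.

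Ppargc1a, the coactivator of mitochondrial and fat oxidation genes, gave 1037, 774, 407 and 962 in WT 1 to WT 4 and 814, 744, 420 and 433 in KO 1 to KO 4. WT 3, KO 3 and KO 4 were low and close to each other, and the other 5 hearts lay higher. The difference of -0.37 ± 0.31 (SE; limma, unadjusted p = 0.259) was the largest of the 47 in size. Without WT 3 it was -0.65 (limma, unadjusted p = 0.0226, adjusted p = 0.864), and in that fit Idh3g, Pdk4 and Ppargc1a were the 3 of 47 genes under an unadjusted p of 0.05, where 5.14% of all genes were. Leaving out any 1 heart gave a Ppargc1a difference between -0.65 and -0.22. Within title 569 its difference was 0.00820, with 1 WT heart. All 5 of its probe sets gave a difference below 0, the smallest in size being -0.0555.

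Levels of these genes varied with the title number of the hearts. For 43 of 47 genes the mean of the 4 hearts titled 541 was below that of the other 4, where 51.4% of all tested genes were lower. For 17 of 47 all 4 hearts titled 541 lay below all of the others, against 7.96% of all tested genes, and for 0 of 47 all lay above, against 6.03%. The 17 were Cs, Idh2, Idh3a, Dld, Fh1, Mdh2, Mpc2, Fabp3, Acsl1, Cpt2, Acadm, Acadl, Hadha, Hadhb, Eci1, Acaa2 and Etfb. The median log2 difference of title 541 from the others was -0.34 over the 47 genes and -0.00979 over all genes. Idh3a, with -1.08, Fabp3, with -0.98, and Cd36, with -0.88, were furthest below. Without WT 3 the counts were 42 of 47 and 18 of 47, against 51.3% and 9.56% of all genes. Related lists showed the pattern too. The mean of title 541 was lower for 11 of 12 cardiomyocyte markers, 22 of 26 carbohydrate genes and 23 of 34 further pathway genes. All 4 hearts titled 541 lay below the others for 3 of 12, 6 of 26 and 8 of 34. The latter 2 lists are described below.

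WT 3 was the lowest of the 8 hearts for 27 of 47 genes, against 15.8% of all tested genes. It was also lowest for 9 of 12 cardiomyocyte markers and 19 of 26 carbohydrate genes. For further pathway genes it was lowest in 7 of 34, nearer the share of all tested genes. The mean centred log2 signal of the 47 genes was -0.36 in WT 3, -0.17 in KO 4, -0.14 in KO 3 and -0.0166 in WT 4. In the 4 hearts of the other titles it lay between 0.15 and 0.19. The same 3 hearts, WT 3, KO 3 and KO 4, had the lowest cardiomyocyte and endothelial marker sums, the highest neuron and branchial muscle sums and the lowest actin 5' to 3' ratios. The part of any of these in these differences was not tested. In RNA from whole hearts, fewer heart muscle cells and less RNA per cell cannot be told apart.

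**Figure D3:**
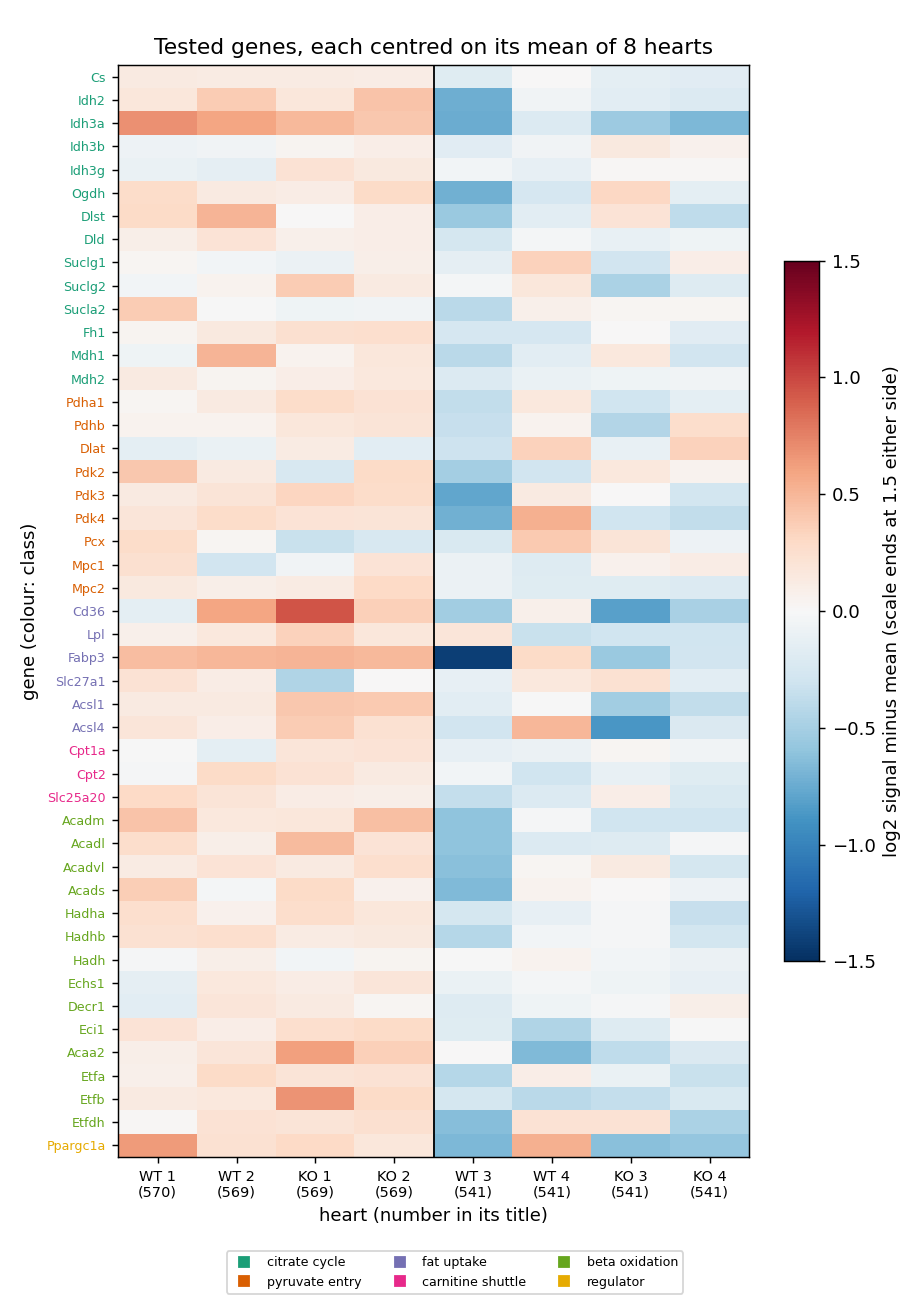
Log2 signal of the 47 tested genes, 1 row per gene coloured by class, in the 8 hearts, centred on each gene's mean, with red above and blue below it. Hearts titled 569 and 570 stand left of the line and those titled 541 right of it, where blue prevails and WT 3 is the darkest column.

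**Figure D4:**
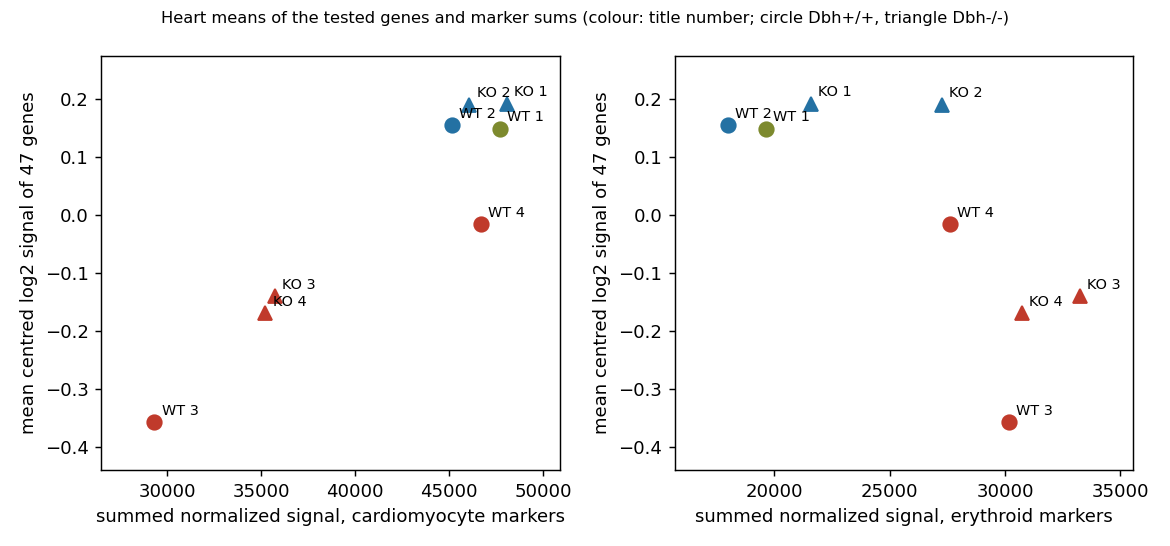
Mean centred log2 signal of the 47 tested genes in each heart on the y axis against the summed normalized signal of 12 cardiomyocyte markers (left) and 12 erythroid markers (right). WT 3, KO 3 and KO 4 are lowest on the y axis and lowest in the cardiomyocyte sum, while WT 4 has a cardiomyocyte sum like that of the hearts of other titles.

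Promoters were examined because 17 of these genes were low in the same hearts. In the 250 bases before the start of each gene, both strands were searched for TCAAGGTCA (estrogen-related receptors), the palindromic NRF1 consensus, CCGGAAGT (GABPA) and the direct repeat bound by PPAR with RXR. RefSeq (GRCm38.p6) gave promoters for 43 of the 47 tested genes. The first was found in 0 of 43, against 0.422% of all 27025 genes, the second in 1 (Etfdh), against 0.877%, the third in 2 (Cpt2 and Slc25a20), against 3.23%, and the fourth in 0, against 0.0407%. At such shares any 43 promoters would hold few or no matches, so these counts cannot set the list apart from all genes. Of the 17 low genes 15 had a promoter here, and 1, Cpt2, held any of these motifs. Both carnitine shuttle promoters with the third motif are shown 5′ to 3′ on the gene's strand, with the motif in capitals, Cpt2 from chr4:107923590-107923839 (minus strand) and Slc25a20 from chr9:108661886-108662135 (plus strand). A match is a string of letters and not a binding site.
Cpt2: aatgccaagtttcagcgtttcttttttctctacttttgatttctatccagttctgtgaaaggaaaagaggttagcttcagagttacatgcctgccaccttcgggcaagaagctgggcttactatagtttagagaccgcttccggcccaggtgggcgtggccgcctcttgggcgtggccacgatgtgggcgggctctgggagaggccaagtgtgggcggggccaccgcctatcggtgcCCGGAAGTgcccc
Slc25a20: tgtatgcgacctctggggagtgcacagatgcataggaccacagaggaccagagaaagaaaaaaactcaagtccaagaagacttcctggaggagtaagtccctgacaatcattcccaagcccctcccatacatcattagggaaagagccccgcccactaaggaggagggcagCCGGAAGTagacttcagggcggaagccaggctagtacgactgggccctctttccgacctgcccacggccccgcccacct

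The fat programme was then set beside the carbohydrate programme of 28 genes of glucose uptake, glycolysis, lactate and glycogen. Of the 27 carbohydrate genes on the array 26 were Present in every heart, as were 21 of the 23 fat genes on it (uptake, carnitine shuttle and beta oxidation). Both programmes were thus detected nearly whole at E10.5, where 7877 of all 9474 tested genes were Present in every heart. The tested genes had already passed the filter of at least 3 Present calls, out of 12871 genes named on the array. The median KO minus WT log2 difference was 0.0348 over 23 tested fat genes, 15 of them above 0, and -0.0187 over 26 carbohydrate genes, 11 of them above 0. Without WT 3 the median was -0.0579 for fat genes, 9 of 23 above 0, and -0.12 for carbohydrate genes, 3 of 26 above 0. The medians differed by 0.0535. The mean fat minus carbohydrate signal of single hearts, over both genotypes, had an SD of 0.19. This is a spread of single hearts and not the error of a difference between groups of 4. That SD turned on WT 4, where the mean fat minus carbohydrate signal was -0.40, against -0.0584 to 0.16 in the other 7 hearts. Without WT 4 the SD was 0.0687 and the medians differed by -0.0628. With title number as a block they differed by 0.12, within title 541 by 0.16 and within title 569 by 0.0118.

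**Figure D5:**
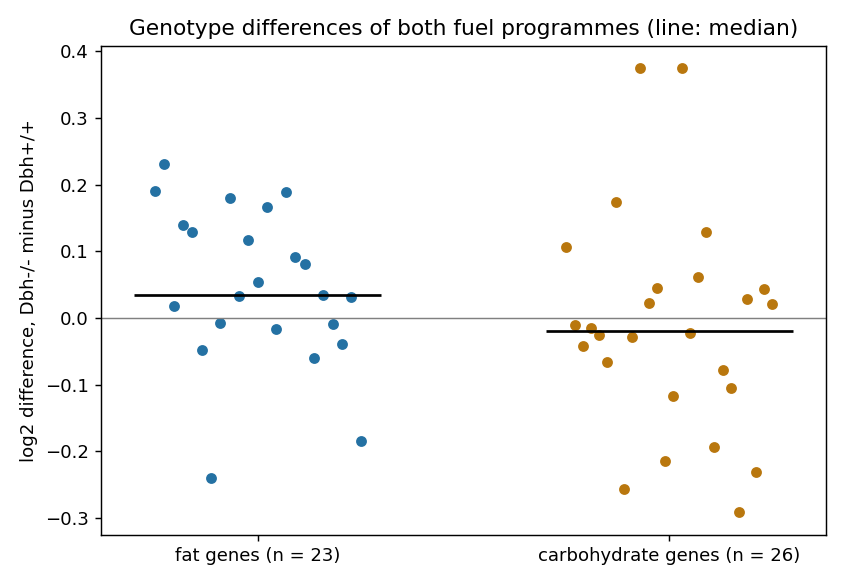
KO minus WT log2 difference of each tested gene of the fat list (23) and of the carbohydrate list (26), in alphabetical order within a list, with the median as a line. Both sets of points straddle 0 and overlap.

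Among glucose transporters, Slc2a1, the main one of fetal heart, was steady, with 5196, 5774, 4554 and 6068 in WT 1 to WT 4 and 5527, 5196, 5909 and 5294 in KO 1 to KO 4 and a difference of 0.0289 ± 0.0867 (SE; limma, unadjusted p = 0.745). Slc2a4, the insulin-responsive transporter of adult muscle, gave 217, 182, 188 and 448 in WT 1 to WT 4 and 236, 296, 222 and 247 in KO 1 to KO 4, highest in WT 4, with a difference of 0.0441 ± 0.26 (SE; limma, unadjusted p = 0.868). Slc2a3, a high-affinity transporter, gave 2561, 3563, 2478 and 3825 in WT 1 to WT 4 and 2493, 2583, 2667 and 2644 in KO 1 to KO 4, with a difference of -0.23 ± 0.13 (SE; limma, unadjusted p = 0.116). Hexokinase genes varied between hearts within each genotype. Hk1 gave 334, 322, 105 and 291 in WT 1 to WT 4 and 407, 348, 268 and 147 in KO 1 to KO 4, lowest in WT 3 and KO 4, and Hk2 gave 1686, 1534, 1339 and 3075 in WT 1 to WT 4 and 1858, 1696, 1307 and 1263 in KO 1 to KO 4, with WT 4 far above the rest. Their differences were 0.17 ± 0.38 (SE; limma, unadjusted p = 0.656) and -0.26 ± 0.23 (SE; limma, unadjusted p = 0.3).

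Lactate dehydrogenase subunits differed in their values. Ldha gave 3612, 3874, 3156 and 4156 in WT 1 to WT 4 and 3780, 4013, 3513 and 3178 in KO 1 to KO 4, with overlapping groups and a difference of -0.0288 ± 0.0983 (SE; limma, unadjusted p = 0.775). Ldhb, the subunit of adult heart and also of red cells, gave 1395, 1190, 1163 and 791 in WT 1 to WT 4 and 1595, 1477, 1270 and 1464 in KO 1 to KO 4, with 1 WT heart inside the KO range. Its difference was 0.37 ± 0.16 (SE; limma, unadjusted p = 0.041), and it was the 1 carbohydrate gene of 26 under an unadjusted p of 0.05. All 12 erythroid markers had a KO minus WT difference above 0, with a median of 0.70, and their part in it was not tested.

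A further 42 genes of the same pathways were listed, of which 34 were tested, 20 above and 14 below 0, with 0 called. Pdk1, the hypoxia-responsive kinase, gave 2719, 2856, 2086 and 3710 in WT 1 to WT 4 and 2843, 2958, 2258 and 1933 in KO 1 to KO 4 and a difference of -0.18 ± 0.18 (SE; limma, unadjusted p = 0.342). It was lower in WT 3 and KO 4 than in the other hearts of their genotype. Like Hk2, Slc2a4 and Pdk4, it was highest in WT 4. WT 4 was also the heart with the high hypoxia gene sum, a list that holds Pdk1 itself, and its part in these values was not tested. Esrra and Esrrg encode receptors that drive mitochondrial genes. Esrra gave 19.7, 11.2, 13.1 and 16.7 in WT 1 to WT 4 and 34.6, 27.1, 15.5 and 12.8 in KO 1 to KO 4, with a difference of 0.27 ± 0.21 (SE; limma, unadjusted p = 0.209). Esrrg gave 11.6, 4.01, 7.32 and 12.6 in WT 1 to WT 4 and 16.1, 15.5, 4.86 and 8.01 in KO 1 to KO 4, with a difference of 0.12 ± 0.20 (SE; limma, unadjusted p = 0.57). Both were dim, and their groups overlapped.

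Ucp2, an inner membrane carrier also abundant in blood cells, had the smallest unadjusted p of these 34. It gave 235, 128, 293 and 197 in WT 1 to WT 4 and 276, 392, 557 and 391 in KO 1 to KO 4, and 3 of 4 KO hearts exceeded all WT hearts. The difference was 0.89 ± 0.26 (SE; limma, unadjusted p = 0.00631), with an adjusted p of 1 in limma. Plin2, which coats lipid droplets, gave 338, 352, 748 and 337 in WT 1 to WT 4 and 478, 515, 738 and 765 in KO 1 to KO 4, high in WT 3, KO 3 and KO 4, and a difference of 0.53 ± 0.27 (SE; limma, unadjusted p = 0.0716). These hearts were the ones with low cardiomyocyte marker sums, and the part of cell makeup in both genes was not tested.

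The authors' deposited table gave p-values under 0.05 for 0 of the 90 probe sets of these genes, the smallest being 0.161, and for 282 of all 22690 probe sets (1.24%).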

How the data were processed

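Total RNA of 8 hearts was measured on 1-colour arrays. The authors' deposited intensity values are linear MAS5 signals, per the file headers, with no common scaling visible in them (trimmed means 209.8 to 316). MAS5 version and scaling target are not given in the sources used here. Detection calls and the detection p-value of each probe set come from the deposited export, per the file headers. The deposited comparison holds a signed fold score and a p-value per probe set, and the deposited quality report the fraction Present (65.2% to 71.6%) and the 5' to 3' ratio of control transcripts, per the file headers.

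Signals were quantile-normalized (limma 3.58.1, R 4.3.3), 16 was added and log2 taken. Probe sets Present in at least 3 of 8 arrays, without controls, entered lmFit and eBayes with an intensity trend, KO against WT with no covariate. Where several probe sets of a gene were tested, the one of highest mean log2 value stood for it. Of 22690 probe sets 20393 had 1 symbol in the platform annotation, 691 several and 1606 none, and 1015 of the unlisted took the deposited export's symbol, updated by RefSeq synonym. Acsl1 and Mpc2 were named only in that way. Of the 22 genes with several tested probe sets, 9 had differences of both signs (Cs, Dlst, Dlat, Acsl1, Cpt1a, Slc25a20, Hadhb, Decr1 and Acaa2). For Acsl1 the probe set above 0 was dim and Present in 3 hearts. The fit was tested on simulated data of 16292 probe sets for KO minus WT in 10 random draws: of 100 probe sets changed by 1 log2 unit 47 to 71 were called, of 100 changed by 2 units 92 to 97, with 3 to 14 false calls, and the 95% intervals held the true change for 91% to 98% and 87% to 97%. The simulated noise was independent between probe sets and hearts, without the title number pattern seen here. These rates check the fit and need not hold for these hearts.

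The genes and lists were chosen with earlier results of these data known. Values per heart are given for the 10 genes of smallest unadjusted p, for genes that set flux or mark a programme, for genes with at most 2 Present calls, and for up to 2 genes of smallest unadjusted p in other lists; those of the marker lists are summarised by their sums. One gene named by this rule is not reported here. The number of arrays limits precision. Alternatives were other scalings, pseudocounts, filters, variance models and probe set rules, the title number as a block, single title numbers and leaving out each heart. The replicate digits follow accession order and pair no hearts.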

Additional observations from a re-analysis of the deposited data

Results flagged for a closer look

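Of 152 groups of 4 hearts examined, 12 had 1 heart whose gap to the nearest other as a share of the group's range exceeded Dixon's 95% critical value, where chance gives about 1 in 20. WT 3 was that heart in 6 of the 12. It was low for Idh3b (829, others 887 to 897), Pdhb (486, others 642 to 646), Pdk3 (189, others 372 to 388), Fabp3 (548, others 1821 to 2104) and Hk1 (105, others 291 to 334), and high for Plin2 (748, others 337 to 352). Among KO hearts, KO 3 was low for Pdhb (452, others 699 to 746), and KO 4 was low for Slc25a20 (1575, others 1976 to 1996) and Etfdh (356, others 579 to 597). Outside the list, WT 1 was high for Sox2 (41.5, others 5.53 to 8.98), and WT 4 was high for Flt1 (1584, others 773 to 820.1) and Adm (384, others 63.6 to 75). All values are normalized signals.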

How the results depend on the processing

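No gene of the list was called in any of the 21 alternatives run. Over all probe sets 0 were called, except 1 within title 541, 1 within title 569 and 40 with signals as deposited and the title number as a block, an alternative chosen after seeing the data. The count of genes at an unadjusted p under 0.05 was 223, and it was 137 as deposited, 471 with the block and 487 without WT 3. Medians of the list and its classes moved by less than the SD between single hearts in every alternative. That SD is not the error of a group difference. None of the 6 medians kept its sign in all alternatives. That of the whole list ran from -0.0721 to 0.12, its lowest value being without WT 3. The fat minus carbohydrate difference ran from -0.0628 (without WT 4) to 0.16 (title 541). Single genes were no steadier, as 35 of 47 changed sign in at least 1 alternative, 117 of 937 values in all, and the cause was not tested. The sign turned with signals as deposited for Pdha1 (-0.0109), Mpc2 (-0.00779), Cd36 (0.0457), Slc25a20 (-0.00896). The sign turned with median centring for Dld (-0.0313), Mdh1 (-0.0136), Mdh2 (-0.0126), Pdha1 (-0.0574), Mpc2 (-0.0543), Slc25a20 (-0.0554), Acadm (-0.0161). The sign turned with a pseudocount of 64 for Cd36 (0.0204). The sign turned with the title number as a block for Dld (-0.00915), Sucla2 (0.0982), Mdh1 (-0.0283), Pdha1 (-0.0246), Cpt2 (-0.0308), Hadhb (0.00558), Echs1 (-0.0210). The sign turned within title 541 for Dlst (0.27), Sucla2 (0.19), Pdha1 (-0.12), Mpc2 (-0.0547), Slc27a1 (0.0173), Hadhb (0.0907), Echs1 (-0.0267). The sign turned within title 569 for Idh2 (-0.0848), Dld (-0.12), Suclg1 (0.0387), Suclg2 (0.20), Mdh1 (-0.40), Pdk2 (-0.11), Cd36 (0.0504), Lpl (0.10), Acsl1 (0.26), Acsl4 (0.21), Cpt2 (-0.11), Slc25a20 (-0.0966), Acadvl (-0.0129), Echs1 (-0.0124), Decr1 (-0.0983), Ppargc1a (0.00820). The sign turned with signals as deposited and the title block together for Dlst (0.0571), Sucla2 (0.15), Acsl1 (0.00404), Hadhb (0.0697). The sign turned with the mean of a gene's probe sets for Cs (0.0259), Dlst (0.0489), Slc25a20 (-0.000728), Hadhb (0.0101). Leaving out 1 heart turned the sign, with ranges in brackets, of Cs (-0.11 to 0.00749), Idh2 (-0.11 to 0.27), Idh3a (-0.44 to 0.0360), Dlst (-0.23 to 0.13), Dld (-0.0868 to 0.0708), Suclg1 (-0.16 to 0.00121), Suclg2 (-0.21 to 0.0692), Sucla2 (-0.16 to 0.10), Mdh1 (-0.0717 to 0.23), Pdha1 (-0.0956 to 0.13), Pdhb (-0.00856 to 0.25), Pdk2 (-0.0201 to 0.29), Pdk3 (-0.0721 to 0.28), Pdk4 (-0.40 to 0.0181), Mpc2 (-0.0775 to 0.0917), Cd36 (-0.32 to 0.26), Lpl (-0.16 to 0.0566), Fabp3 (-0.38 to 0.28), Acsl1 (-0.19 to 0.12), Acsl4 (-0.41 to 0.0116), Cpt2 (-0.0627 to 0.14), Slc25a20 (-0.0811 to 0.14), Acadm (-0.18 to 0.16), Acadvl (-0.0579 to 0.24), Acads (-0.0571 to 0.28), Hadha (-0.0490 to 0.16), Hadhb (-0.15 to 0.0817), Etfa (-0.16 to 0.0927), Etfb (-0.00306 to 0.34), Etfdh (-0.11 to 0.27). Within title 569, with 1 WT heart assumed to vary like the KO hearts, Idh3g (0.32), Dlst and Mdh1, 3 of 47 genes, had an unadjusted p under 0.05 in limma, where 12.6% of all genes did. With 4 hearts a group, the arrays limit what can be seen: the median 95% interval was 0.41 log2 units to either side over all probe sets. With signals as deposited it was 0.573. Present calls decide which dim genes were tested at all.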
